A study of Bombus terrestris with 16 samples.

Results

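Down syndrome cell adhesion molecule, Dscam, is a membrane receptor built from immunoglobulin and fibronectin type III domains. In Drosophila the Dscam1 gene is spliced into a very large number of forms, each of which binds its own kind, and this lets the branches of one neuron recognise and avoid each other. Forms made by Drosophila hemocytes and fat body bind bacteria and take part in phagocytosis, and the fly genome also holds Dscam paralogues with far less splicing. Here 6 of the 10635 RefSeq transcript records measured in bumblebee guts were taken as the Dscam family, since these are the records whose deposited KEGG description is Down syndrome cell adhesion molecule (3 records) or its like 1 form (3 records). Counts were deposited per record, so splice forms within a record were not separated, and how reads shared by similar records were assigned is not given in the sources used here.

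The guts came from Bombus terrestris workers of 4 colonies, K, L, S and T, that were 7 d old. Workers were either controls or were exposed to genotype 068, 075 or 161 of Crithidia bombi, a trypanosome of the bumblebee gut, and were killed 18 h after exposure. The labels give no treatment of the controls beyond their name. Each of the 16 libraries held poly(A) RNA pooled from 3 workers of 1 colony and 1 exposure, so the spread between workers was not measured, and each exposure had 4 libraries, 1 per colony.

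Library totals ran from 8.47 to 9.29 M reads. As a check of the labelled tissue, 80 records of gut epithelium markers (digestive enzymes and the V-type proton pump) had a summed RPKM (reads divided by record length in kb and by library total in M) of 74900 to 103000 per library. Markers of other tissues summed to 289 to 331 RPKM for the nervous system (39 records, of which glutamate decarboxylase alone averaged 145 and the median record 1.17), 30.7 to 46.3 for hemocytes (18 records) and 493 to 704 for muscle (33 records), and no record of these 4 lists was without reads in every library. The first principal component of log2 CPM held 34.1% of the variance, with the K control and S 075 libraries at one end and L 161 and the L control at the other.

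The best database hits of the records were in different animals. XM_003394934.1 had the strongest, with a score of 1796 to a protein of the fly Drosophila pseudoobscura, described by KEGG as Dscam like 1. It is the only member whose deposited annotation holds phagocytosis and binding to the bacterial cell surface, beside dendrite self-avoidance and axon guidance. XM_003393849.1 matched the same fly gene with a score of 850. XM_003393930.1 matched mouse Dscam like 1 (1052), XM_003394608.1 a chimpanzee Dscam (974) and XM_003395892.1 a chicken Dscam (972). XM_003402417.1 (LOC100648077) had the weakest hit, with a score of 154 to a sea urchin Dscam, so its place in the family rests on less than that of the others. Record lengths were 4861 bases (XM_003402417.1), 5919 (XM_003394934.1), 6009 (XM_003393930.1), 6380 (XM_003394608.1), 6495 (XM_003393849.1) and 8128 (XM_003395892.1).

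Dscam reads in the gut came mostly from 3 of the 6 records. Of 3748 reads on the family, XM_003393930.1 held 52.2%, XM_003402417.1 32.6% and XM_003394934.1 10.8%, and the other 3 held 2.45% (XM_003393849.1), 1.01% (XM_003394608.1) and 0.88% (XM_003395892.1). Per length, the mean level over the libraries was 2.31 ± 0.842 RPKM for XM_003393930.1 (SD, n = 16), 1.79 ± 0.629 for XM_003402417.1 and 0.482 ± 0.141 for XM_003394934.1. XM_003393849.1 stood at 0.0998 ± 0.0583 RPKM, XM_003394608.1 at 0.0429 ± 0.0552 and XM_003395892.1 at 0.0288 ± 0.0298.

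All 6 lay below the median record, whose mean level was 4.78 RPKM. XM_003393930.1, the highest, exceeded 38.7% of all records. XM_003402417.1 and XM_003394934.1 were each above the 3 lower members in 16 of 16 libraries, as was XM_003393930.1. XM_003393930.1 and XM_003402417.1 both exceeded XM_003394934.1 in 16 of 16 libraries. The order of the upper pair was less fixed, with XM_003393930.1 above XM_003402417.1 in 12 of 16. XM_003393849.1 exceeded both XM_003394608.1 and XM_003395892.1 in 12 of 16 libraries. In bulk tissue, fewer cells of a type and less RNA per cell cannot be told apart.

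**Figure D1:**
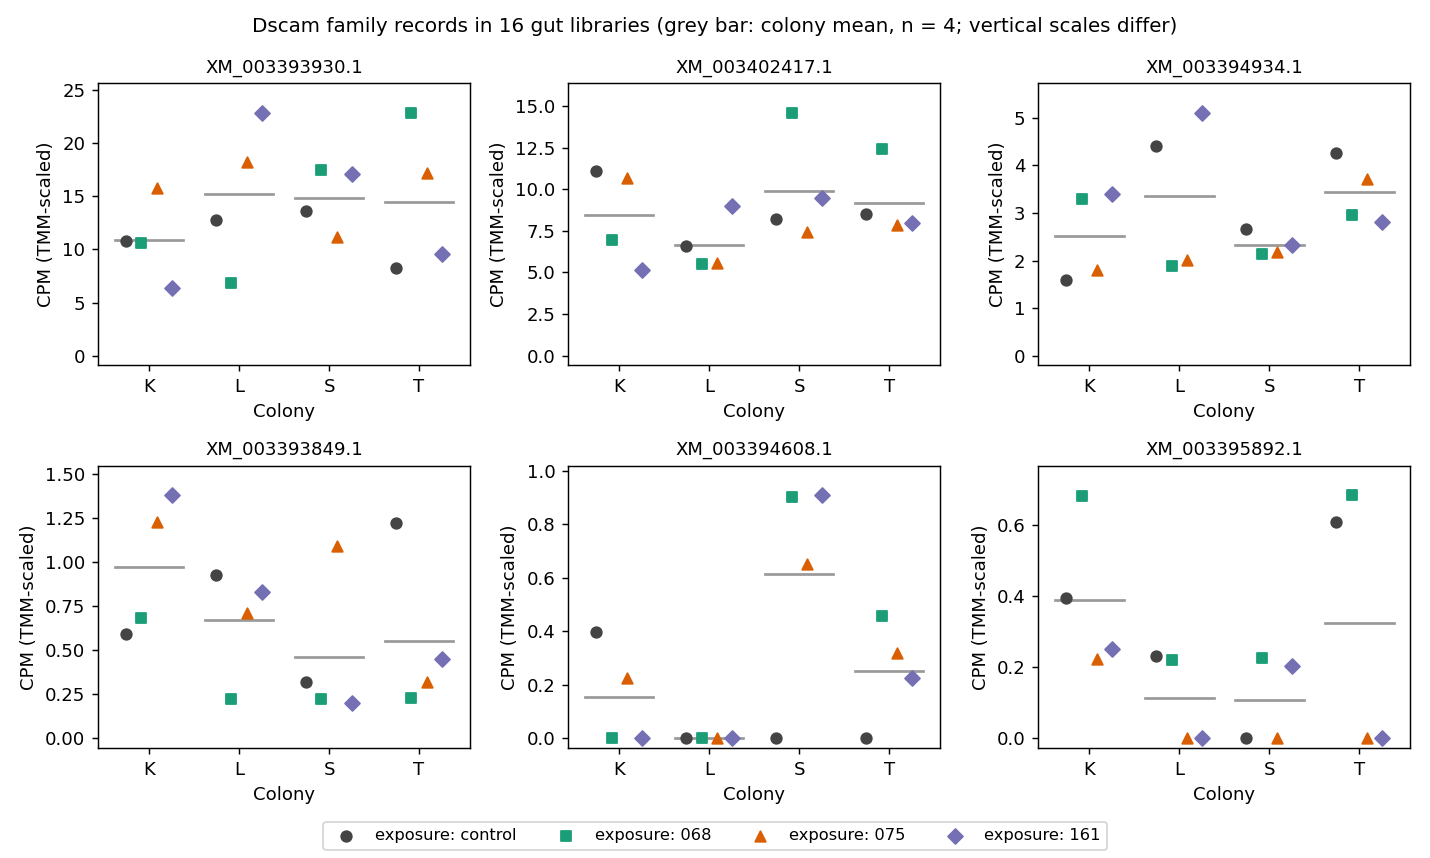
Level of the 6 Dscam family records in every library, in CPM (counts scaled to library size, with TMM factors), by colony on the x axis and by exposure (symbol), with grey bars for colony means (n = 4) and a separate vertical scale per panel. The 3 upper panels hold the records that passed the count filter, XM_003393930.1 reaching 22.9 CPM, and XM_003394608.1 has no read in the 4 libraries of colony L.

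Exposure to the parasite was compared with control over the 3 records with enough reads to pass the count filter, using CPM after TMM scaling. XM_003393930.1 stood at 10.8, 12.8, 13.6 and 8.29 CPM in the K, L, S and T controls. After 068 it stood at 10.6, 6.85, 17.5 and 22.9 CPM in the same order. After 075 the values were 15.8, 18.2, 11.2 and 17.2 CPM, and after 161 they were 6.4, 22.9, 17.1 and 9.62 CPM. The control range lay wholly inside that of the 12 exposed libraries, and the mean of a colony's exposed libraries was above its own control in L, S and T. In K it stood at 10.9 against 10.8 CPM, and by deposited RPKM, which has no TMM factor, it was below its control, at 1.77 against 2.14. The mean was 11.4 ± 2.37 CPM in controls (SD, n = 4) and 14.7 ± 5.67 in exposed guts (n = 12), a log2 difference of 0.35 ± 0.32 (SE) with a 95% interval from -0.35 to 1.04. It did not pass edgeR's quasi-likelihood test (adjusted p = 1, Benjamini-Hochberg over 8406 records).

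XM_003402417.1 stood at 11.1, 6.61, 8.19 and 8.53 CPM in the K, L, S and T controls. After 068 it stood at 6.95, 5.52, 14.6 and 12.4 CPM, lower than the control in K and L and higher in S and T. After 075 it stood at 10.7, 5.56, 7.4 and 7.86 CPM, below the colony's own control in K, L and S on both scales and in T in CPM only, since by deposited RPKM T 075 stood at 1.72 against 1.62. After 161 the values were 5.15, 8.98, 9.49 and 7.94 CPM. Control and exposed ranges overlapped for each genotype, and the mean of the exposed libraries was above the colony's own control in S and T and below it in K. In L it stood at 6.69 against 6.61 CPM, and at 1.25 against 1.28 by deposited RPKM. The means were 8.6 ± 1.85 CPM in controls (SD, n = 4) and 8.55 ± 2.9 in exposed guts (n = 12), a log2 difference of -0.03 ± 0.25 with a 95% interval from -0.57 to 0.51 (edgeR adjusted p = 1). The sign of this difference near 0 changed without the K control (0.17), without K 068 (0.04), K 161 (0.06), L 068 (0.03) or S 075 (0.01), without colony K (0.15) and with the trend on record length removed (0.01).

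XM_003394934.1, the record annotated with phagocytosis, stood at 1.58, 4.41, 2.66 and 4.27 CPM in the K, L, S and T controls. After 068 it stood at 3.3, 1.88, 2.14 and 2.96 CPM, after 075 at 1.79, 2.01, 2.18 and 3.72, and after 161 at 3.39, 5.11, 2.32 and 2.8. Exposed and control ranges overlapped, and colony K went against the other colonies: its exposed mean was above its control, while those of L, S and T were below. The means were 3.23 ± 1.35 CPM in controls (SD, n = 4) and 2.8 ± 0.971 in exposed guts (n = 12), a log2 difference of -0.18 ± 0.3 with a 95% interval from -0.83 to 0.48 (edgeR adjusted p = 1). This difference ranged from -0.44 to -0.01 over the fits without a colony or a library. It was -0.43 without the K control, and -0.62 without the K control, S 075 and L 161 together, with an unadjusted p of 0.0673 (edgeR adjusted p = 0.551). In the latter fit 810 of all 8406 records had an unadjusted p under 0.05, against 263 in the fit with 16 libraries. In CPM the lowest library of XM_003394934.1 was the K control and its highest L 161, libraries that lie at opposite ends of the first principal component. The record's correlation with that component was -0.63 over the 16 libraries. The part of this component in the record's values was not tested.

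Of the 3 tested members 0 passed for exposed guts, against a background of 0% of the 8406 records. The same held for 068, for 075 and for 161 against control, for any difference among the 4 exposures and for differences among the 3 genotypes, each with a background of 0% in edgeR. Beside the comparison of exposed guts with controls, 263 records had an unadjusted p under 0.05 in edgeR, 293 in DESeq2 and 269 in limma-trend, and both other tools called 0 records there. DESeq2 called 5 records for 075, none of them a member. In each of edgeR, DESeq2 and limma-trend, 0 of 51 tests on the 3 members over 17 comparisons had an adjusted or an unadjusted p under 0.05.

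**Figure D2:**
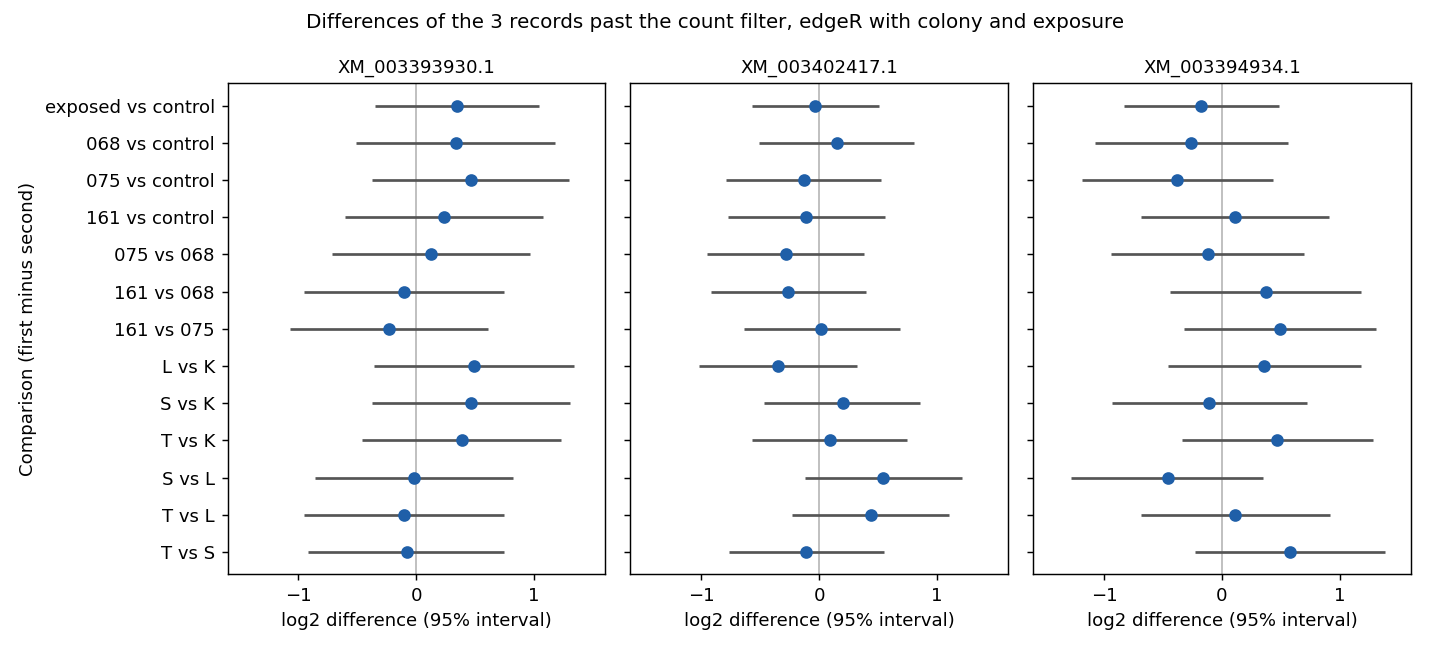
Log2 differences (points) with approximate 95% intervals (lines) of the 3 records that passed the count filter, on the x axis, for each comparison of exposures and colonies on the y axis, from the edgeR fit with colony and exposure. Every interval crosses 0.

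Single genotypes gave differences on both sides of 0. For XM_003393930.1 the log2 difference from control was 0.34 ± 0.39 for 068, 0.47 ± 0.39 for 075 and 0.24 ± 0.39 for 161. For XM_003402417.1 it was 0.15 ± 0.31, -0.13 ± 0.31 and -0.11 ± 0.31 in that order. For XM_003394934.1 it was -0.26 ± 0.38, -0.38 ± 0.38 and 0.11 ± 0.37. The 95% interval for XM_003393930.1 reached from -0.51 to 1.18 after 068, from -0.37 to 1.3 after 075 and from -0.6 to 1.08 after 161. A 2-fold higher level lay within each of them.

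The study's title asks about the match of host and parasite genotypes, and the members were also compared between parasite genotypes. XM_003402417.1 averaged 9.88 ± 4.35 CPM after 068 (SD, n = 4), 7.89 ± 2.14 after 075 and 7.89 ± 1.94 after 161. XM_003394934.1 averaged 2.57 ± 0.672, 2.42 ± 0.878 and 3.41 ± 1.22 CPM in that order, and XM_003393930.1 14.4 ± 7.15, 15.6 ± 3.1 and 14.0 ± 7.44 CPM. The pair farthest apart was 161 against 075 for XM_003394934.1, with a log2 difference of 0.49 ± 0.38 and a 95% interval from -0.32 to 1.31 (edgeR adjusted p = 0.901). None of the 9 genotype pairs passed, and none of the neighbours in these orders differed beyond their spread.

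Colonies stand for host backgrounds and were the other axis of the design. XM_003402417.1 was lowest in L, at 6.67 ± 1.62 CPM (SD, n = 4), followed by K at 8.48 ± 2.91, T at 9.19 ± 2.18 and S at 9.93 ± 3.25. XM_003394934.1 ran from 2.32 ± 0.236 CPM in S through 2.52 ± 0.963 in K and 3.35 ± 1.65 in L to 3.44 ± 0.684 in T. XM_003393930.1 stood at 10.9 ± 3.83 CPM in K, 14.5 ± 6.84 in T, 14.8 ± 2.97 in S and 15.2 ± 6.95 in L. L was the lowest colony for XM_003402417.1 by deposited RPKM as well. For XM_003393930.1 the order of the upper 3 depended on the scale, since by RPKM L averaged 2.29, T 2.45 and S 2.62, above 1.87 in K. In CPM the colony ranges of XM_003402417.1 and XM_003393930.1 overlapped. By deposited RPKM XM_003402417.1 ranged from 1.1 to 1.5 in L, below 1.57 to 3.16 in S and 1.62 to 2.57 in T. For XM_003394934.1 S lay below T on both scales, at 2.14 to 2.66 against 2.8 to 4.27 CPM. By RPKM these ranges were 0.379 to 0.455 and 0.491 to 0.668. The share of all records with separate colony ranges was not counted here, so whether the members stand out in this cannot be told. In edgeR, T against S gave XM_003394934.1 an unadjusted p of 0.148, and S and T against L gave XM_003402417.1 0.101 and 0.18. Over all records 5.28%, 15.8% and 7.6% had an unadjusted p under 0.05 in these pairs, in that order.

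No member passed for colony, against a background of 0.464% of records (39 of 8406 in edgeR). The adjusted p was 0.715 for XM_003402417.1, 0.723 for XM_003394934.1 and 0.818 for XM_003393930.1. Of the 18 colony pairs over the 3 members, the smallest unadjusted p was 0.101, for XM_003402417.1 in S against L, with a log2 difference of 0.54 ± 0.31 and a 95% interval from -0.12 to 1.21 (edgeR adjusted p = 0.388). None of the 18 passed, against backgrounds of 0.131% of records for L against K, 0.155% for S against K, 0.297% for T against K, 0.0833% each for S and T against L, and 0.19% for T against S. In T, the 068 library stood apart for this record, at 12.4 CPM against 7.86 to 8.53 in the other 3. Whether the difference between exposed guts and controls itself varied between colonies was tested with an interaction term, which 1.69% of records (142) passed. None of the 3 members did, with adjusted p = 0.954 for XM_003402417.1, 0.864 for XM_003394934.1 and 0.983 for XM_003393930.1 in edgeR.

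The other 3 members had few reads and fell below the count filter. XM_003394608.1 had reads in 8 of 16 libraries: 4 in the K control and 2 in K 075, then 8, 6 and 9 in S 068, S 075 and S 161, and 4, 3 and 2 in T 068, T 075 and T 161. It had 0 reads in the 4 libraries of colony L, of 35.9 M reads in all, and 0 in the S and T controls. A count of 0 allows up to 3 reads, which is 0.297 to 0.415 CPM per library, and this limit covers counting error only. Of the libraries with reads, K 075 and T 161 lay below this limit. Summed over a colony, it had 23 reads in S, 9 in T, 6 in K and 0 in L. Tested without the count filter, colony gave an unadjusted p of 0.096 (edgeR adjusted p = 0.637, background 0.348%) and the interaction of colony with exposed state an unadjusted p of 0.0437 (adjusted p = 0.506, background 1.46%). For S against L the unadjusted p was 0.0163 (edgeR adjusted p = 0.295). The backgrounds given here are shares of records with an adjusted p under 0.05. An unadjusted p under 0.05 was held by 8.74% of the 10635 records for colony, 9.27% for the interaction and 13.5% for S against L. None of the 3 low members passed for any pair of colonies, against backgrounds of 0.103% of the 10635 records for L against K, 0.15% for S against K, 0.226% for T against K, 0.0658% each for S and T against L, and 0.15% for T against S.

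XM_003393849.1, the second match to the Drosophila pseudoobscura gene, had reads in 16 of 16 libraries, from 2 to 11 per library. Its K libraries held 6 reads in the control and 6, 11 and 11 after 068, 075 and 161. Its L libraries held 8 in the control and 2, 6 and 6, its S libraries 3 and 2, 10 and 2, and its T libraries 10 and 2, 3 and 4. After 068 it averaged 0.339 ± 0.229 CPM (SD, n = 4), against 0.765 ± 0.392 in controls, 0.837 ± 0.409 after 075 and 0.715 ± 0.514 after 161, and the 068 libraries were below their own control in L, S and T. In K, with 6 reads in each, 068 was above the control in CPM and below it by RPKM. The unadjusted p for 068 against control was 0.0976 without the count filter (edgeR adjusted p = 1, background 0%).

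XM_003395892.1 had 33 reads in all, in 10 of 16 libraries. It had reads in 4 of 4 libraries after 068, with 6 in K, 2 in L, 2 in S and 6 in T, and in 1 of 4 after 075, with 2 in K. Controls held 4, 2, 0 and 5 reads in K, L, S and T, and after 161 there were 2 reads each in K and S. The unadjusted p for 075 against 068 was 0.0378 without the count filter (edgeR adjusted p = 1, background 0%), where 1.01% of all records had one under 0.05. For XM_003395892.1 any difference among the 4 exposures had an unadjusted p of 0.15. Of its 10 counts above 0, 9 were even, as were 6 of 8 for XM_003394608.1 and 12 of 16 for XM_003393849.1. This is a trait of the whole file, in which 69.1% of the counts from 1 to 9 were even, against 49.6% of counts of 200 up to 1000. The sources used here do not say whether the 2 ends of a fragment were counted separately. Where they were, such counts stand for fewer fragments, and the effect on the p values was not tested.

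Exact permutation tests on log2(CPM + 0.5), two-sided, gave no member a p under 0.05 for either factor. With exposure labels permuted within colonies (256 arrangements), p ran from 0.188 (XM_003394608.1) to 0.828 (XM_003402417.1) over the 6 members. With colony labels permuted within exposures (13824 arrangements), p ran from 0.0764 (XM_003394608.1) to 0.728 (XM_003393930.1). These 12 p values are not adjusted.

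The share of a record's bases covered by reads was deposited beside each count and gives a readout other than the level. A single read covered 90 bases (to within 1 base) in 100% of 2343 cases with 1 read, so the share covered if reads were spread evenly can be computed from count and length. XM_003402417.1 was covered over 62.9% of its bases on average, which is 85.9% of the even value, and XM_003394934.1 over 28.6%, 90.7% of the even value. XM_003393930.1 was covered over only 41.3% although it had the most reads, 51.2% of the even value of 80.5%. Records of 4000 to 9000 bases within 2-fold of its depth (411 records) had a median of 66.7% of the even value, and 27.3% of them lay lower, so uneven cover of this size was common among them. For XM_003402417.1 and XM_003394934.1 such records had medians of 67.0% and 73.1%. The 3 low members lay at 96.1% to 103% of the even value, against medians of 84.4% to 90.5%. Their mean depth (bases read over record length) was 0.0228 to 0.0797. So few reads seldom overlap, and their value says little of how evenly they were spread.

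**Figure D3:**
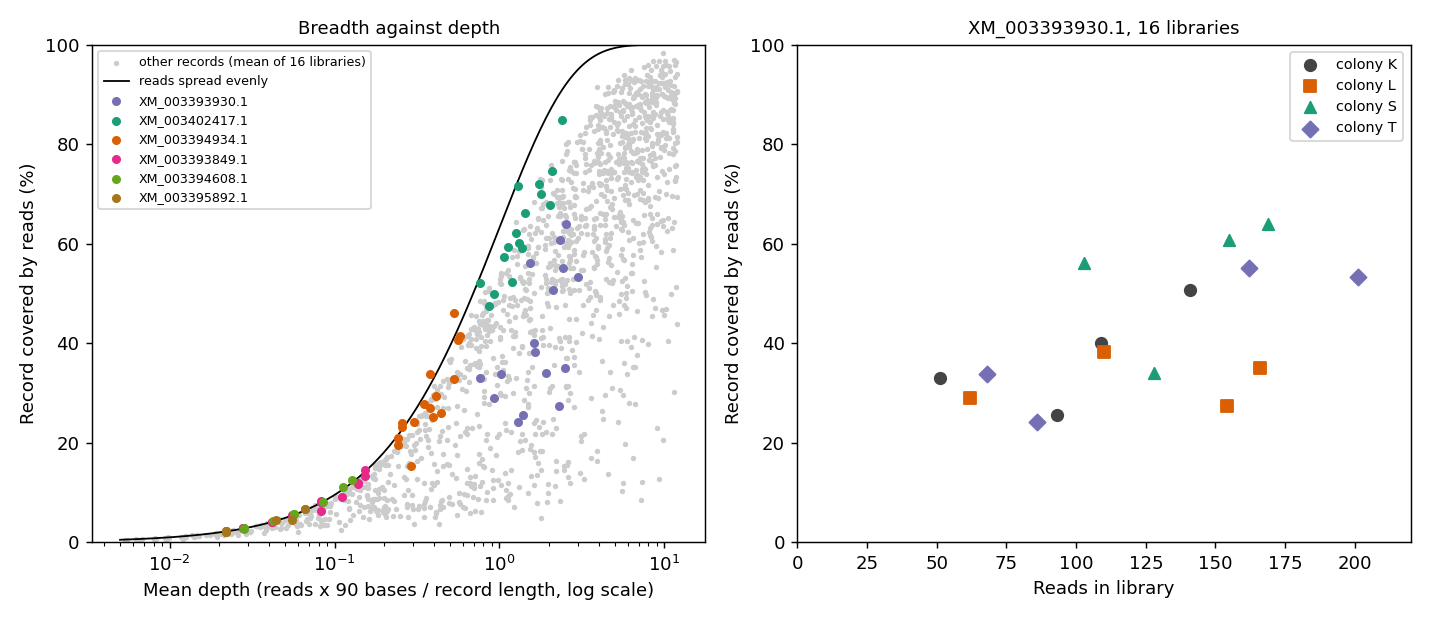
Left, share of each record covered by reads (y axis) against its mean depth (x axis, log scale) for the members, 1 point per library with reads, and for other records of 4000 to 9000 bases (grey, means of 16 libraries), with the line for reads spread evenly. Right, share of XM_003393930.1 covered (y axis) against its reads (x axis) in each library by colony: at 154 and 155 reads the share was 27.34% in L 075 and 60.78% in S 068.

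The breadth of XM_003393930.1 varied between libraries at equal counts. L 075 with 154 reads had 27.34% of the record covered, and S 068 with 155 reads had 60.78%. L 161 with 166 reads had 34.93%, and S 161 with 169 reads had 63.97%. In colony L its share of the even value was 30.4% to 48.0%, while in S the 3 exposed libraries lay at 67.4% to 71.4% and the control at 39.8%. The range was 33.4% to 60.5% in T and reached 61.7% in K, in its 161 library with 51 reads.

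Over the 16 libraries the coefficient of variation of this share was 26.0% for XM_003393930.1, higher than in 97.8% of 405 records of like length and depth, whose median was 9.97%. It was 7.64% for XM_003402417.1 and 14.7% for XM_003394934.1, higher than in 16.9% and 40.5% of their comparison records. The median share over the comparison records of XM_003393930.1 moved between 55.5% and 68.9% from library to library, with the lowest value in L 161. These breadths are a description, since the pattern was noticed in the same values.

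The 3 tested members did not share 1 pattern across the libraries. The Pearson correlation of log2 CPM over the 16 libraries was 0.56 between XM_003402417.1 and XM_003393930.1, -0.19 between XM_003402417.1 and XM_003394934.1, and 0.08 between XM_003394934.1 and XM_003393930.1. These points share colonies, exposures and the large differences between libraries named above. The correlation with the first principal component was 0.48 for XM_003402417.1 and 0.12 for XM_003393930.1.

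The genes with the most similar pattern differed for each member, and likeness is given as the Pearson correlation of log2 CPM over the 16 libraries among described records. They were picked as the highest among the described records of the 8406 tested. How high such picked values run among unrelated records was not tested, so they are a description only. Nearest to XM_003402417.1 was Musashi (0.83; LOC100644427), an RNA-binding protein of progenitor cells in Drosophila. It was followed by the matrix proteoglycan testican (0.79), the transcription factor EVI1 (0.78), the Wnt pathway inhibitor adenomatosis polyposis coli (0.77) and a cadherin 23 (0.76). EVI1 had a mean of 0.13 RPKM, and its lowest library held 0 reads.

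Nearest to XM_003394934.1 were the ESCRT-I subunit MVB12 (0.88), which helps sort membrane proteins for breakdown, and a sugar transporter of solute carrier family 2 (0.88) at a mean of 246 RPKM. The transcription factor C/EBP (0.87; LOC100642562), the chaperone DnaJ B6 (0.87) and a neuronal guanine nucleotide exchange factor (0.82) came next. All 5 stood at a mean of 17.4 RPKM or more, well above the 0.482 RPKM of the Dscam record. Nearest to XM_003393930.1 were cyclin T (0.83), which acts in transcript elongation, a ribosomal protein L13e record (0.79), PAX-interacting protein 1 (0.75), a ZIC zinc finger protein (0.7) and the endosomal sorting protein HGS (0.7; LOC100645008). The first 4 of these stood at 0.592 to 1.37 RPKM. Cyclin T ranged from 0 to 2.21 CPM over the libraries, the L13e record from 0.442 to 1.89 and PAX-interacting protein 1 from 0.122 to 4.92. These likenesses therefore rest in part on few reads.

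Other genes of the pathway were taken from lists matched to the deposited descriptions. Over all 8406 records the background was 0% for each test of exposure and genotype, 0.464% for colony and 1.69% for the interaction. At these shares, lists of this size would hold few or no calls. Of 16 tested receptors of the immunoglobulin family that act in adhesion and guidance, 0 passed in any of the 8 tests of exposure, genotype, colony and interaction. A neuronal cell adhesion molecule (XM_003395685.1) and roundabout 1 (XM_003402497.1), a receptor for slit, each stood at 17.7 RPKM, with SDs of 2.91 and 1.62 (n = 16). A neural cell adhesion molecule (XM_003398280.1) stood at 11.7 ± 2.11 RPKM and the netrin receptor neogenin (XM_003400482.1) at 10.8 ± 1.35 RPKM. These are the 4 highest of their list by choice. The median over the list's 16 tested records, without the 5 that did not pass the count filter, was 2.04 RPKM. The highest Dscam record stood at 2.31 RPKM.

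Of 21 tested guidance ligands and their other receptors 0 passed, with semaphorin 5 (XM_003401115.1) the highest at 110 ± 19.9 RPKM, followed by plexin A, the semaphorin receptor (13.9 ± 2.01), slit 1 (11.6 ± 2.88) and slit 2 (10.2 ± 1.69). Dscam signals in flies through the adaptor Dock, an NCK protein, to the p21-activated kinase Pak. Of 11 tested genes of this signalling to the cytoskeleton 0 passed. The highest were enabled (XM_003400331.1, 80.4 ± 18.4 RPKM), which extends actin filaments, and the small GTPase Rac1 in 2 records (79.1 ± 8.06 and 41.7 ± 5.91 RPKM), followed by son of sevenless, an activator of Ras (24.4 ± 3.85).

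Of 19 tested phagocytosis and other recognition receptors 1 passed, and for colony only (background 0.464%). This toll-like receptor 3 record (XM_003396806.1) averaged 25.1 CPM in K, 43.2 in L, 20.9 in S and 14.4 in T (edgeR adjusted p = 0.0158). The highest receptors of that list were scavenger receptors of class B (XM_003402377.1 at 49.5 ± 4.87 RPKM and XM_003399856.1 at 32.8 ± 5.67), another toll-like receptor 3 record (34.9 ± 10.8) and galectin 9 (31.6 ± 4.24). Of 26 tested splicing regulators, the class of proteins that chooses between alternative exons, 0 passed. The highest were 2 serine/arginine-rich factors (XR_132191.1 at 131 ± 13.5 RPKM and XM_003394118.1 at 108 ± 18.8) and the ribonucleoproteins K (61.8 ± 4.84) and A1/A3 (36.3 ± 10.1).

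For exposed against control guts the median log2 difference was -0.04 for the immunoglobulin-family receptors (5 of 16 higher), -0.09 for guidance ligands and their receptors (8 of 21) and -0.13 for Dscam signalling (2 of 11). It was -0.04 for recognition receptors (8 of 19) and 0.01 for splicing regulators (14 of 26). Over all 8406 records the median was -0.02, with 3708 higher.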

How the data were processed

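The authors deposited, per the file headers, a whole-number read count, a percent of the record covered by reads and an RPKM for each of 10635 records in each library. The submitters' processing notes name TopHat 1.9; the counting program, strand use, genome build and annotation release are not given in the sources used here. The deposited RPKM equalled count, length and library total combined by formula in 151539 of 151539 cells above 0 (relative tolerance 1e-06). The deposited KEGG score of a hit, at least 100, was required for names and lists.

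After filterByExpr had kept 8406 records and TMM factors had scaled the libraries, edgeR 4.0.16 (R 4.3.3) fitted a quasi-likelihood model to the counts, with terms for colony and for exposure, and called records at a Benjamini-Hochberg adjusted p of 0.05. Standard errors are the log2 difference over the root of F, and 95% intervals use the t distribution. P-values rest on the spread left after the colony and exposure terms. With 1 library per colony and exposure, differences between pools of 3 workers cannot be told apart there from a joint effect of colony and genotype. The interaction took the 3 exposed libraries of a colony as replicates, so its spread also holds differences between the 3 genotypes. Pairing by colony comes from the labels: after removing exposure means, libraries of 1 colony correlated at 0.12 on average (24 pairs, -0.3 to 0.48) and those of different colonies at -0.11. DESeq2 1.42.0, limma-trend 3.58.1, other scalings, filters and leave-outs were alternatives, and the code was tested on simulated data.

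Members and lists were chosen with earlier results of these data known, and list matches by spelling only were removed after the descriptions were seen. Named were the 6 members, the 5 described records most like each tested member (prior count 2), and of each list the 4 with the highest mean RPKM and those that passed. Of the 6 members 1 matched the RefSeq gene table; no sequence of the members was used here.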

Additional observations from a re-analysis of the deposited data

Results flagged for a closer look

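In groups of 4 libraries sharing an exposure or a colony, 5 of 47 groups with any spread held 1 library whose gap to the others passed Dixon's 95% critical value; chance alone flags about 1 in 20 groups of untied values. T 068 stood apart for XM_003402417.1, at 12.4 CPM against 7.86 to 8.53 in the other T libraries. The other 4 rest on few reads. The K control had 0.396 CPM of XM_003394608.1 and the other controls 0, so that its gap was bound to pass. K 068 had 0.683 CPM of XM_003393849.1 against 0.221 to 0.228 after 068 elsewhere. S 075 had 1.09 CPM of XM_003393849.1 against 0.202 to 0.319 in the other S libraries. K 075 had 0.224 CPM of XM_003395892.1, which is 2 reads, and the other 075 libraries 0, with the same effect.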

How the results depend on the processing

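No member passed under any alternative that was run: of 789 member values, 764 kept direction and side of the threshold and 25 changed sign. For XM_003402417.1, exposed guts differed from controls by 0.01 (log2) with the length trend removed, and by 0.1 with 3 libraries left out (L 161, S 075 and the control of K), with 0.22 for 075. Without these 3 libraries XM_003394934.1 had -0.49 and XM_003393930.1 -0.09 for 161. Other differences grew in that fit, to 0.86 for XM_003393930.1 after 075 (unadjusted p = 0.0309, edgeR adjusted p = 0.408) and to -0.76 for XM_003394934.1 after 075 (0.0718 and 0.498), while colony gave XM_003402417.1 an unadjusted p of 0.0374 (adjusted p = 0.307), and colony pairs gave it unadjusted p values down to 0.0069 (adjusted down to 0.199). For XM_003393930.1 they went down to 0.0248 for colony pairs and 0.0217 for genotype pairs (adjusted down to 0.202 and 0.999). Over 20 fits without a colony or a library, the difference of XM_003402417.1 ranged from -0.14 to 0.17 for exposed guts, -0.1 to 0.42 for 068, -0.39 to 0.08 for 075 and -0.38 to 0.21 for 161. XM_003394934.1 ranged from -0.68 to 0.05 for 068 and -0.14 to 0.33 for 161, and XM_003393930.1 from -0.09 to 0.68 and -0.15 to 0.52. Signs turned without colony K, L, S or T, the K control, K 068, K 161, L 068, L 161, S 068, S 075 or T 068.

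Over all records, 075 gave 5 calls with DESeq2 and 10 without the 3 libraries, against 0 in edgeR. Colony gave 39 calls, 233 with DESeq2, 73 without the exposure term, 119 without the 3 libraries and 12 (without colony T) to 128 (without the K control) over the leave-outs, with 21 without colony S and 24 without T 068. The interaction gave 142 calls, 320 with DESeq2 and 0 (without colony K) to 345 (without colony L) over the leave-outs, with 55 without colony S, 3 without K 068, 5 without K 161, 70 without L 075, 250 without L 161 and 58 without T 068. It could not be fitted without a control library. The causes were not tested. Without the colony block (no replicate block), exposed guts again gave 0 calls, with 267 at an unadjusted p under 0.05. Depth limits the 3 low members, which had at most 11, 9 and 6 reads per library.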
